A study of Mus musculus with 7 samples.

Results

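Astrocytes are the glial cells that tend synapses. They take up glutamate, convert it to glutamine, buffer potassium and water, store glycogen and carry cholesterol on apolipoprotein E. In the gray matter of the cortex their protoplasmic form carries little Gfap, the intermediate filament that is strong in the fibrous astrocytes of white matter and of the pial surface. The cells described here are the Gfap-low astrocytes of mouse ventromedial prefrontal cortex (PFC) and motor cortex (MC), 2960 of 32985 deposited cells. A cell was taken where at least 4 of the 6 astrocyte genes Gja1, Aqp4, Slc1a3, Ntsr2, Aldoc and Cldn10 had a count, Gfap was below 3, Slc17a7, Gad1 and Gad2 were at 0, and none of C1qa, Cldn5 and Mog reached 2. The counts are of unique molecular identifiers (UMIs), and these 13 genes chose the cells, so their values are a description only.

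The DTA mice were Opn4-Cre/+; Brn3b-zDTA/+, in which the Brn3b-expressing share of the intrinsically photosensitive retinal ganglion cells is ablated by diphtheria toxin A, and the CTRL mice were Opn4-Cre/+; Brn3b-+/+. Both genotypes thus carry Opn4-Cre, which is driven from the melanopsin locus, and the toxin is made where that Cre has acted and Brn3b is transcribed. All mice were of strain B6129SF1/J, were at postnatal day 30 and were kept on a daily cycle with 12 h of light followed by 12 h of darkness. The MC gave 1 DTA and 1 CTRL library, and the PFC gave 3 DTA and 2 CTRL libraries. Each was a 10x Genomics 3' V2 droplet library of dissociated cells.

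The 7 libraries held 6180059 to 30972905 counts in 1936 to 9879 cells, and the Gfap-low astrocytes held 325862 to 1330375 of those counts. PFC DTA replicate 1 was the shallowest, with a median of 1011 UMIs per Gfap-low astrocyte, against 1306 to 2888.5 in the other 6 libraries. Pairs of libraries shared 7 to 92 cell barcodes, and 6 barcodes of Gfap-low astrocytes occurred in more than 1 library. The neutrophil and leukocyte marker list was low in 2 of the 7 libraries. Its sum within the Gfap-low astrocytes was 281 CPM in MC DTA, 19.8 CPM in MC CTRL, 224, 282 and 357 CPM in PFC DTA and 259 and 30.04 CPM in PFC CTRL. CPM is a gene's count scaled to 1e6 counts of the summed Gfap-low astrocytes of its library, or of the summed remaining cells. The remaining cells are all cells that failed the rule. They include 126 astrocytes with more Gfap and 391 cells that met every other condition with 3 astrocyte genes. Defining genes of other cell types were low but not at 0. The excitatory neuron list summed to 483 to 2493 CPM in the Gfap-low astrocytes and to 14355 to 17034 CPM in the remaining cells, and the microglia list to 78.5 to 282 CPM against 818 to 1442 CPM.

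Of the 2960 cells, 2708 had no Gfap count, 201 had 1 and 51 had 2, and 26 cells just outside the rule had 3. All 6 astrocyte genes were detected in 1088 of the cells, 5 in 1098 and 4 in 774, while 391 cells that met every other condition had 3. Among 3667 cells with 4 or more astrocyte genes and low Gfap, 492 carried Slc17a7, 207 carried Gad1 or Gad2, and 90 reached 2 counts of C1qa, Cldn5 or Mog. A cell could fail more than 1 of these conditions.

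The astrocyte label was checked on genes that the rule did not use. Slc1a2, the main glutamate transporter of the forebrain, stood at 3144 to 5416 CPM over the 7 libraries, against 430 to 586 CPM in the remaining cells. Glul, which makes glutamine from glutamate, stood at 4321 to 6891 CPM, against 241 to 491 CPM. The list of 28 astrocyte identity genes outside the rule summed to 56986 to 84496 CPM in the Gfap-low astrocytes and to 4113 to 5883 CPM in the remaining cells. Since the cells were chosen on correlated genes of the same cells, these differences carry no test.

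The 12 genes with the largest smallest-library ratio over the remaining cells are given as a description. Fzd2, a Wnt receptor, had 81.4 to 163 CPM, against 0.592 to 2.90 CPM in the remaining cells. Slc7a10, a transporter of small neutral amino acids including D-serine, had 439 to 717 CPM, against 4.96 to 14.4 CPM. Entpd2, which splits extracellular ATP, had 114 to 251 CPM, against 1.81 to 4.92 CPM. The smallest of the 7 library ratios was 42.3 for Fzd2, 37.7 for Slc7a10 and 37.9 for Entpd2. Ppp1r3g, a subunit that steers protein phosphatase 1 to glycogen, had 174 to 494 CPM, against 2.43 to 6.62 CPM. Phkg1, the catalytic subunit of the kinase that starts glycogen breakdown, had 253 to 419 CPM, against 3.04 to 8.71 CPM. Grin2c, an NMDA receptor subunit, had 221 to 436 CPM, against 2.37 to 7.48 CPM. Fgfr3, a fibroblast growth factor receptor that marks the astrocyte lineage, had 473 to 655 CPM, against 5.41 to 15.1 CPM. Slc25a18, a mitochondrial glutamate carrier, had 347 to 500.2 CPM, against 4.83 to 12.2 CPM. Cyp4f15, a cytochrome P450, had 112 to 158 CPM, against 0.741 to 4.34 CPM. The others were Btbd17, Eva1a and Tlcd1, which together spanned 243 to 572 CPM, against 4.13 to 12.3 CPM. Every one of these genes was higher in the Gfap-low astrocytes in all 7 libraries.

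**Figure D1:**
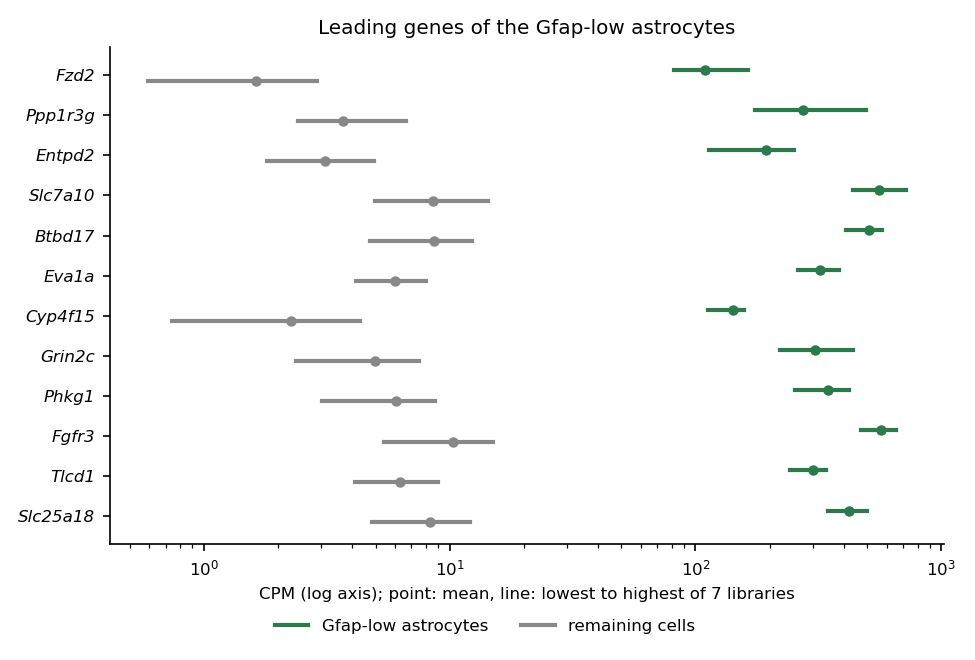
The 12 genes with the largest smallest-library ratio of Gfap-low astrocytes over the remaining cells, by level in CPM on a log axis. Points are means over the 7 libraries and lines run from the lowest to the highest library. In each gene shown the whole line of the Gfap-low astrocytes lies above that of the remaining cells, for Fzd2 at 81.4 to 163 CPM against 0.592 to 2.90 CPM.

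Gfap-high astrocytes, which met the same rule with 3 or more Gfap counts, numbered 126. At least 20 of them were found in PFC DTA replicates 2 and 3 and PFC CTRL replicate 2, so only those libraries are described. Slc7a10 stood at 474 and 717 CPM in the Gfap-low and at 44.5 and 161 CPM in the Gfap-high astrocytes of the DTA libraries, and at 542 and 64.7 CPM in those of CTRL replicate 2. Igfbp2, a binding protein of insulin-like growth factors, stood at 327 and 214 CPM in the Gfap-low and at 8.89 and 26.1 CPM in the Gfap-high astrocytes of the DTA libraries. In CTRL replicate 2 it stood at 239 and 21.6 CPM. Hsd11b1, which regenerates active glucocorticoid from its inert form, and Pde10a, a cyclic nucleotide phosphodiesterase, were also higher in the Gfap-low astrocytes of all 3 libraries. The opposite was seen for Myoc, the myocilin gene that marks astrocytes of the brain surface. It stood at 0 and 4.78 CPM in the Gfap-low and at 747 and 1731 CPM in the Gfap-high astrocytes of the DTA libraries, and at 10.7 and 1295 CPM in CTRL replicate 2. Serpinf1, Fxyd6, Slc6a9 (the glycine transporter GlyT1) and the complement gene C4b were likewise lower in the Gfap-low astrocytes of all 3. The Gfap-high counts behind these levels are small, with 1 and 6 counts of Igfbp2 in the DTA libraries and 1 in CTRL replicate 2, and the split was made in these same cells, so there is no test.

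The spread among Gfap-low astrocytes of a library was described gene by gene. It was taken as the variance over the mean of UMI counts after each cell was thinned to 1000 UMIs, where counting alone gives about 1. Only genes with a mean of at least 0.1 UMI were ranked, and for a given relative spread the ratio rises with the mean, so abundant genes are favoured. Over 1116 genes the median ratio was 1.03, and 94.3% of genes lay under 1.2. The nuclear RNA Malat1 had a median ratio of 30.7 over the libraries, and Fos, an immediate early transcription factor, had 5.23. Cst3, which encodes the secreted protease inhibitor cystatin C, and Apoe, the lipid carrier, had 5.22 and 5.20. Actb had 3.28, Id3 3.03, and the metallothionein gene Mt1 2.86. At 500 UMIs per cell Malat1 gave 18.1, and 10 of the 12 highest genes were shared with the 1000 UMI ranking.

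Fos also set 1 library apart. It stood at 597 CPM in MC DTA and 589 CPM in MC CTRL, at 1992, 2041 and 161 CPM in PFC DTA, and at 1548 and 1182 CPM in PFC CTRL. PFC DTA replicate 3 was thus the lowest of the 7 in its Gfap-low astrocytes, while its remaining cells had the highest Fos level, 589 CPM against 226 to 550 CPM in the other libraries. Junb, its dimer partner, stood at 654, 508 and 116 CPM in PFC DTA and at 578 and 466 CPM in PFC CTRL. The metallothioneins, which bind zinc and copper, set PFC CTRL replicate 2 apart instead. Mt1 stood at 13107, 14951 and 10816 CPM in PFC DTA and at 14894 and 5942 CPM in PFC CTRL.

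Gfap-low astrocytes made up 11.7%, 13.7% and 5.75% of the cells in PFC DTA and 12.1% and 7.74% in PFC CTRL. The genotypes overlapped, at 10.4% ± 4.11 in DTA (SD, n = 3) and 9.94% ± 3.11 in CTRL (SD, n = 2). The difference of 0.416 percentage points gave p = 1 in a two-sided exact permutation test, which cannot go below 0.1 with these libraries. After thinning all cells to 1000 UMIs the shares were 8.58%, 12.2% and 9.21% in DTA and 10.9% and 7.03% in CTRL, with an exact p of 0.7. Cells under 1000 UMIs were left out of these shares, 839, 222 and 2511 of them in DTA and 91 and 1738 in CTRL. The difference turned to -0.105 points when 5 astrocyte genes were required. It was -0.238 without DTA replicate 1, -1.23 without DTA replicate 2 and -1.78 without CTRL replicate 2. The 4 libraries of 1936 to 3873 cells had shares of 11.7% to 13.7%, and the 3 libraries of 6072 to 9879 cells had 5.75% to 7.74%. The MC share was 13.1% of 2373 cells in MC DTA and 7.48% of 6229 cells in MC CTRL, with exact 95% binomial intervals of 11.7% to 14.5% and 6.84% to 8.16% that cover counting error only. How cell recovery bears on these shares was not tested.

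**Figure D2:**
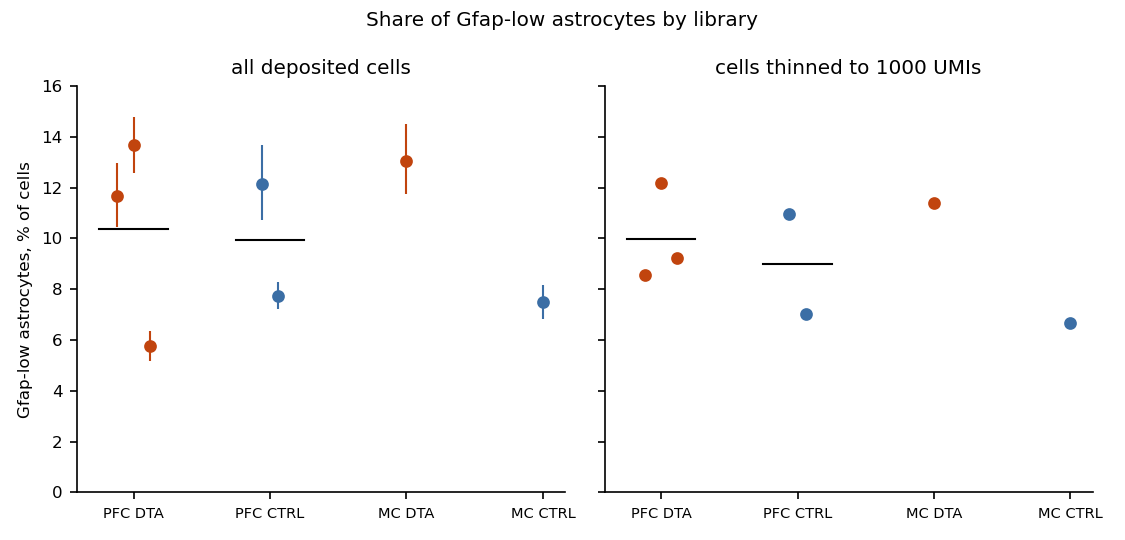
Share of cells in each library that were Gfap-low astrocytes, in percent, over all cells and over cells thinned to 1000 UMIs. Points are libraries, thin vertical lines exact 95% binomial intervals of counting error (left panel only) and black bars means of the PFC groups. The PFC genotypes overlap, at 5.75% to 13.7% in DTA and 7.74% to 12.1% in CTRL before thinning.

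The study asks what loss of these retinal cells does to the cortex, and in the Gfap-low astrocytes of the PFC no gene passed the test between DTA and CTRL. Of 9216 genes tested with edgeR's quasi-likelihood test, 0 had an adjusted p under 0.05, that is 0%, and the smallest adjusted p was 0.992. Without adjustment 192 genes had a p under 0.05, split into 89 with a higher and 103 with a lower level in DTA. DESeq2 called 1 gene, Snhg9, and had 59 at an unadjusted p under 0.05. With edgeR, leaving out CTRL replicate 1 gave 2 calls, leaving out CTRL replicate 2 gave 5, and leaving out DTA replicate 1 gave 1. The groups did not overlap in 16.5% of all genes tested. The single genes below are therefore given as values, chosen by the smallest p each way.

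Snhg9, a host gene of small nucleolar RNAs, had 58.3, 124 and 176 CPM in PFC DTA and 28.5 and 22.3 CPM in PFC CTRL. The DTA libraries lay above both CTRL libraries, at 119 ± 58.8 CPM in DTA (SD, n = 3) and 25.4 ± 4.41 CPM in CTRL (SD, n = 2), with a log2 fold change of 2.39 (SE 0.41). In the remaining cells it had 14.5, 51.4 and 37.7 CPM in DTA and 10.8 and 18.7 CPM in CTRL, so the groups overlapped there. mt-Atp8, an ATP synthase subunit encoded in mitochondria that overlaps mt-Atp6, had 18.4, 68.4 and 68.1 CPM in DTA and 10.7 and 16.5 CPM in CTRL. The remaining cells showed 24.6, 69.3 and 55.2 CPM of mt-Atp8 in DTA and 18.6 and 21.3 CPM in CTRL, a like difference outside the Gfap-low astrocytes. The median share of mitochondrial counts per Gfap-low astrocyte was 4.38%, 4.63% and 3.97% in DTA and 3.99% and 3.67% in CTRL. Serpina3n, a secreted protease inhibitor of reactive astrocytes, had 24.6, 57.1 and 49.0 CPM in DTA and 17.8 and 14.5 CPM in CTRL, with a log2 fold change of 1.63 (SE 0.38). Mtif2, a mitochondrial translation factor, and mt-Nd4l, a subunit of complex I whose gene overlaps mt-Nd4, had log2 fold changes of 1.61 (SE 0.41) and 1.29 (SE 0.34).

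On the lower side, Slc38a2, a transporter of glutamine and other neutral amino acids, had 39.9, 66.9 and 63.3 CPM in PFC DTA and 123 and 127 CPM in PFC CTRL. The groups lay apart, at 56.7 ± 14.7 CPM in DTA (SD, n = 3) and 125 ± 2.77 CPM in CTRL (SD, n = 2), while the remaining cells had 153, 134 and 144 CPM in DTA and 146 and 129 CPM in CTRL. Plk2, a kinase induced by activity in neurons, had 21.5, 33.8 and 37.0 CPM in DTA and 85.6 and 58.2 CPM in CTRL. Cables1, a partner of cyclin-dependent kinases, had 21.5, 38.3 and 45.4 CPM in DTA and 89.2 and 66.9 CPM in CTRL. The kinase gene Pim3 and the zinc finger gene Zfp260 had log2 fold changes of -0.84 (SE 0.26) and -0.87 (SE 0.27). Of these 10 genes, 7 had the same direction between the single MC libraries. The share over all genes was not taken. Among the 7, the counting intervals of the ratio spanned no change for Zfp260 (0.615 to 1.49), mt-Nd4l (0.771 to 1.63) and Plk2 (0.345 to 1.33). Those of Serpina3n (1.16 to 4.41), mt-Atp8 (1.37 to 3.45) and Pim3 (0.360 to 0.881) did not. Snhg9 had 186 CPM in MC DTA and 35.6 CPM in MC CTRL, from 169 and 27 counts, a ratio of 5.22 with an exact Poisson 95% interval of 3.46 to 8.15. Slc38a2 had 44.0 CPM in MC DTA and 34.3 CPM in MC CTRL, the opposite direction to the PFC.

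**Figure D3:**
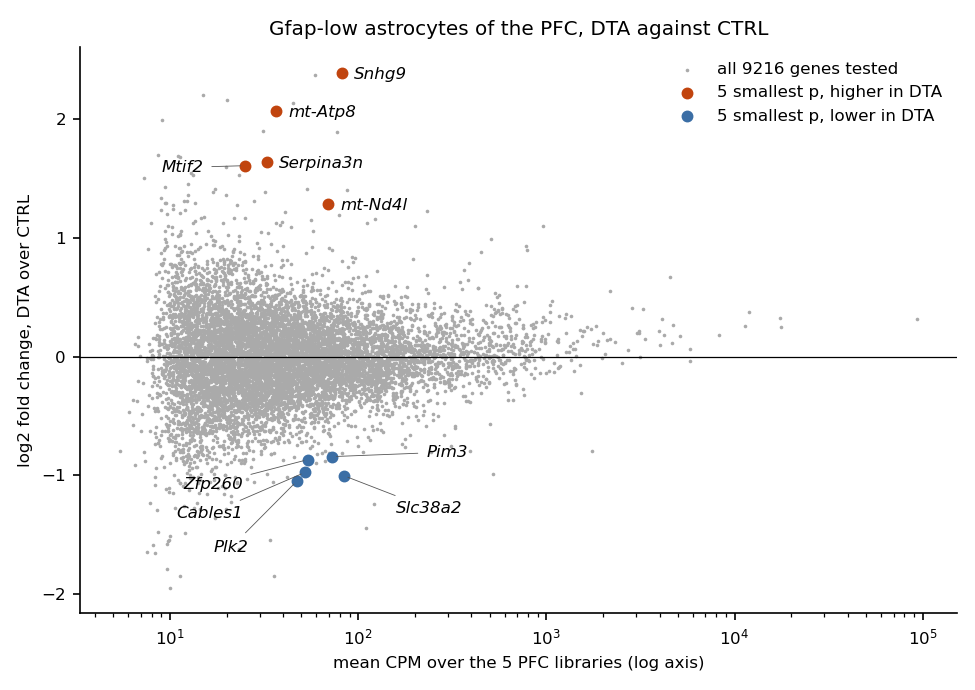
Log2 fold change of PFC DTA over PFC CTRL in Gfap-low astrocytes against the mean level in CPM over the 5 PFC libraries (log axis), 1 grey point for each of the 9216 genes tested. The 5 genes with the smallest p each way are coloured and named, from Snhg9 at 2.39 to Plk2 at -1.05, and no gene passed the adjusted threshold.

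The astrocyte gene lists showed no called member between the PFC genotypes, against a median log2 fold change over all genes of -0.02. Genes of astrocyte identity outside the rule were positive in 26 of 28, with a median of 0.18, and without DTA replicate 3 in 23 of 28. Their sums were 84495.9, 62742.5 and 65931.9 CPM in DTA and 69030.3 and 56986.4 CPM in CTRL. Only DTA replicate 1, the shallowest library, lay above both CTRL libraries. Secreted proteins of synapses and matrix were positive in 22 of 24 tested, with a median of 0.27. They summed to 34655.8, 24951.6 and 24922.4 CPM in DTA and 27592.5 and 20227.6 CPM in CTRL. Again DTA replicate 1 alone lay above both CTRL libraries, and list counts without it were not made. Sparcl1, a secreted protein that acts on synapses, had 2658, 2369 and 2390 CPM in DTA and 2167 and 1373 CPM in CTRL. The reactive astrocyte list had 10 of 32 genes above the filter on low counts, of which 8 were positive, with a median of 0.42, and without DTA replicate 3 it was positive in 6 of 7, with a median of 0.66. Transmitter uptake (7 of 13 positive), potassium and water handling (12 of 15), sterol synthesis and lipid transport (17 of 27) and glycolysis and glycogen (13 of 22) had medians of 0.03 to 0.14. Without DTA replicate 3, transmitter uptake was positive in 11 of 13 (median 0.15), potassium and water handling in 10 of 14 (0.14) and sterol synthesis in 14 of 27 (0.05). The clock list was positive in 8 of 19, with a median of -0.07, and without DTA replicate 3 in 6 of 18, with a median of -0.19. Per1, a repressor of the circadian clock and the list's member with the smallest p, had 27.6, 57.1 and 74.1 CPM in DTA and 144 and 57.2 CPM in CTRL. Immediate early genes were positive in 14 of 27, and without DTA replicate 3 in 21 of 26. The neutrophil and leukocyte list was positive in 5 of 5 tested, with a median of 1.28. Its member with the smallest p was Ngp. Another member, S100a8, chosen after its values were seen, had 89.0, 104 and 142 CPM in DTA and 96.3 and 3.88 CPM in CTRL. For S100a8, CTRL replicate 1 thus lay within the DTA range and CTRL replicate 2 stood alone.

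Between the areas the Gfap-low astrocytes did differ. With genotype as a term, 11 of 9530 genes passed between MC and PFC, or 0.115%, with 6 higher and 5 lower in MC. Without adjustment 625 genes had a p under 0.05, and DESeq2 called 10 genes, 9 of them shared. The groups did not overlap in 12% of all genes tested. Each area comparison rests on 2 MC libraries of different genotype, and the labels do not say whether MC and PFC libraries came from the same animals. Without MC DTA only Zic4 passed, without MC CTRL Zic4, Zic1, Nnat and Slc38a1 passed, and with the CTRL libraries alone 0 genes did. Without PFC DTA replicate 2 the count was 6, and without PFC CTRL replicate 1 it was 28. The areas also differed in the median share of mitochondrial counts per cell. In Gfap-low astrocytes it was 5.94% in MC DTA and 6.35% in MC CTRL, against 3.67% to 4.63% in the PFC libraries. In the remaining cells it was 3.56% and 4.44%, against 2.62% to 3.49%. The part of this difference in the area calls was not tested.

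Transcription factors were among the 11. Zic1 and Zic4 encode zinc finger factors of the medial forebrain, and Nr2f1 encodes a nuclear receptor (COUP-TFI) that patterns the cortex along its front-to-back axis. Promoters were taken for the 5 genes with an adjusted p under 0.01. Those of Zic1, Zic4 and Nr2f1, the DNA-binding factors among them, are shown, and those of Nnat and Hopx are not. Zic1 (chromosome 9, 91358058 to 91365768) and Zic4 (chromosome 9, 91365631 to 91389351) lie head to head on opposite strands and overlap by 138 bases, and Nr2f1 lies on chromosome 13, 78188971 to 78198873, all in GRCm38. The windows run from 250 bases before to 50 after a RefSeq transcript start of GRCm38.p6, at chr9:91365719-91366018 on the minus strand for Zic1, chr9:91368722-91369021 on the plus strand for Zic4 and chr13:78198824-78199123 on the minus strand for Nr2f1. The Zic4 start lies 3341 bases inside the gene. Capitals mark CCAAT or GGGCGG on either strand.
Zic1: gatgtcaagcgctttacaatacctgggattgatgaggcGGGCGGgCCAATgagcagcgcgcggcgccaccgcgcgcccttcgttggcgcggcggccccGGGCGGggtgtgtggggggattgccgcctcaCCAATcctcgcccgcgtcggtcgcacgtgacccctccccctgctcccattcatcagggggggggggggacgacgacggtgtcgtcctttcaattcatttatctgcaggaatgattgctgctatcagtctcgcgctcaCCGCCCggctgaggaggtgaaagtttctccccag
Zic4: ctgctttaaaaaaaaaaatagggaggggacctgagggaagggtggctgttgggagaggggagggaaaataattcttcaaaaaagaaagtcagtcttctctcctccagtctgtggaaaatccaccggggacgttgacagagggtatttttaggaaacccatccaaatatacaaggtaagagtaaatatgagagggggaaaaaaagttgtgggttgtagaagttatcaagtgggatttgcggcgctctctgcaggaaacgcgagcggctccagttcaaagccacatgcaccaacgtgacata
Nr2f1: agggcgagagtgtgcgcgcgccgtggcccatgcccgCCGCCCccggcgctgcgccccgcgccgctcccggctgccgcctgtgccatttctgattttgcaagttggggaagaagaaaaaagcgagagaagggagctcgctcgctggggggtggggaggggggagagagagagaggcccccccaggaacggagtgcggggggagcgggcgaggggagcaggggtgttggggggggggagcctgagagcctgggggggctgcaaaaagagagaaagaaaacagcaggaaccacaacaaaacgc
The Zic1 window holds 2 CCAAT and 3 GGGCGG matches that do not overlap, 31 CpG dinucleotides and 65.3% G and C. The Zic4 window has 8 CpG and 46% G and C, with none of the motifs searched, and the Nr2f1 window has 1 GGGCGG, 23 CpG and 68%. TATAAA and AGGTCA, on either strand, were also searched and were in none of the 3. Over all 32851 promoters of this length the medians are 7 CpG and 52.7%. CCAAT was in 37.4% of them, GGGCGG in 35.7%, TATAAA in 13.6% and AGGTCA in 16.3%. A match is a description of the letters only.

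Zic4 had 0 counts in MC DTA and in MC CTRL, and 15, 53 and 29 counts in PFC DTA and 18 and 47 in PFC CTRL. In CPM the PFC levels were 46.0, 39.8, 34.7, 32.1 and 45.6. Set against a floor of 3 counts over the MC group, Zic4 was at least 22.0-fold lower in MC, a bound for counting error only. Its adjusted p was 0.000188. Zic1 had 9.91 CPM in MC DTA and 17.2 CPM in MC CTRL, against 92.1, 149 and 83.6 CPM in PFC DTA and 127 and 104 CPM in PFC CTRL. The areas did not overlap, with a log2 fold change of -3.05 (SE 0.35, adjusted p 0.000336). After thinning to 1000 UMIs, 0.35% of MC DTA and 1.23% of MC CTRL cells and 7.89% to 14.7% of the PFC cells had a Zic1 UMI (2.90%, 2.79% and 8.82% to 27.6% before thinning). In microglia-like cells, taken as 2 or more C1qa counts with medians of 1044.5 to 3385 UMIs, the share was 0% and 0.265% in MC DTA and MC CTRL and 0% to 1.12% in PFC. For Zic4 the thinned share was 0 of 286 MC DTA and 0 of 406 MC CTRL cells. The exact 95% binomial intervals, of counting error only, reached 1.28% and 0.904%. In the PFC the thinned share was 1.79% to 5.06%, where microglia-like cells had 0% to 1.12%. Before thinning the Zic4 share was 0% in both MC libraries and 4.90% to 8.51% in the PFC.

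Nr2f1 had the opposite pattern, with 89.2 and 91.1 CPM in MC DTA and MC CTRL, against 18.4, 16.5 and 31.1 CPM in PFC DTA and 12.5 and 17.4 CPM in PFC CTRL. The log2 fold change was 2.27 (SE 0.26, adjusted p 0.000336). In the remaining cells Nr2f1 stood at 94.2 to 105 CPM in MC and 69.8 to 116 CPM in PFC, where the areas overlapped. An Nr2f1 UMI was found in 8.04% and 8.37% of thinned MC cells and in 1.27% to 4.10% of thinned PFC cells, against 21.9%, 12.4% and at most 7.16% before thinning. The microglia-like cells had 0.837% and 3.18% in MC and 0% to 1.53% in PFC.

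Nnat (chromosome 2, 157560078 to 157562525), an imprinted gene for a small membrane protein of the endoplasmic reticulum, had 29.7 and 29.0 CPM in MC DTA and MC CTRL, against 147, 228 and 141 CPM in PFC DTA and 173 and 181 CPM in PFC CTRL. Its log2 fold change was -2.55 (SE 0.27, adjusted p 0.000188). The remaining cells differed in the same way, with 33.9 and 35.0 CPM in MC and 140 to 305 CPM in PFC. After thinning a Nnat UMI was seen in 3.50% of MC DTA, 1.72% of MC CTRL and 9.49% to 18.3% of PFC cells (7.10%, 4.29% and 13.7% to 31.0% before). Microglia-like cells had 0%, 0.796% and 2.21% to 9.46%, below the astrocyte share in each library. Hopx (chromosome 5, 77086986 to 77115123), a homeodomain protein that does not bind DNA, had 59.4 and 35.6 CPM in MC DTA and MC CTRL, against 209, 201 and 145 CPM in PFC DTA and 166 and 121 CPM in PFC CTRL. It fell in MC by 1.76 on the log2 scale (SE 0.26, adjusted p 0.00685). A Hopx UMI was seen in 4.20% of MC DTA, 2.46% of MC CTRL and 12.3% to 20.3% of PFC cells after thinning (15.2%, 5.36% and 14.9% to 35.9% before), and in at most 0.435% of microglia-like cells. Slc38a1 (chromosome 15, 96571418 to 96643438), a glutamine transporter, had 1.10 and 14.5 CPM in MC DTA and MC CTRL, against 101, 60.9 and 64.5 CPM in PFC DTA and 139 and 91.1 CPM in PFC CTRL. Its log2 fold change was -3.66 (SE 0.51, adjusted p 0.0225), and the remaining cells had 116 and 130 CPM in MC and 97.5 to 131 CPM in PFC. After thinning a Slc38a1 UMI was seen in 0 of 286 MC DTA cells, with an exact 95% binomial interval of counting error up to 1.28%. It was seen in 1.23% of MC CTRL cells and 6.64% to 14.7% of PFC cells. Before thinning the shares were 0.323%, 1.72% and 7.52% to 23.8%. Microglia-like cells had 5.86%, 6.63% and 2.25% to 7.53%. In PFC CTRL replicate 2 the astrocyte share of 7.82% was close to their 7.53%. The MC astrocytes thus held less Slc38a1 than the other cells around them.

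The other 5 genes higher in MC encode secreted or surface proteins and a stress protein. Igfbp2 (chromosome 1, 72824480 to 72852474) had 688 and 415 CPM in MC DTA and MC CTRL, against 156, 327 and 214 CPM in PFC DTA and 178 and 239 CPM in PFC CTRL. The log2 fold change was 1.31 (SE 0.24, adjusted p 0.0398). Apln, the precursor of the peptide apelin, had 189 and 145 CPM in MC, against 129, 86.4 and 80.1 CPM in PFC DTA and 57.1 and 58.2 CPM in PFC CTRL (log2 1.17, SE 0.22, adjusted p 0.0441). Dner, a Notch ligand, had 178 and 121 CPM in MC, against 56.2 to 77.4 CPM in the 5 PFC libraries (log2 1.13, SE 0.21, adjusted p 0.042). Nupr1, a small chromatin protein induced by stress, had 256 and 374 CPM in MC, against 76.5 to 157 CPM in PFC (log2 1.32, SE 0.22, adjusted p 0.0225). Ptger4, a receptor of prostaglandin E2, had 20 and 14 counts in MC and 1, 1, 1, 0 and 1 in PFC, a ratio of 20.8 with a counting interval of 7.43 to 80.9 (adjusted p 0.0257). In none of these 5 did the areas overlap, and each lost its call without either MC library.

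**Figure D4:**
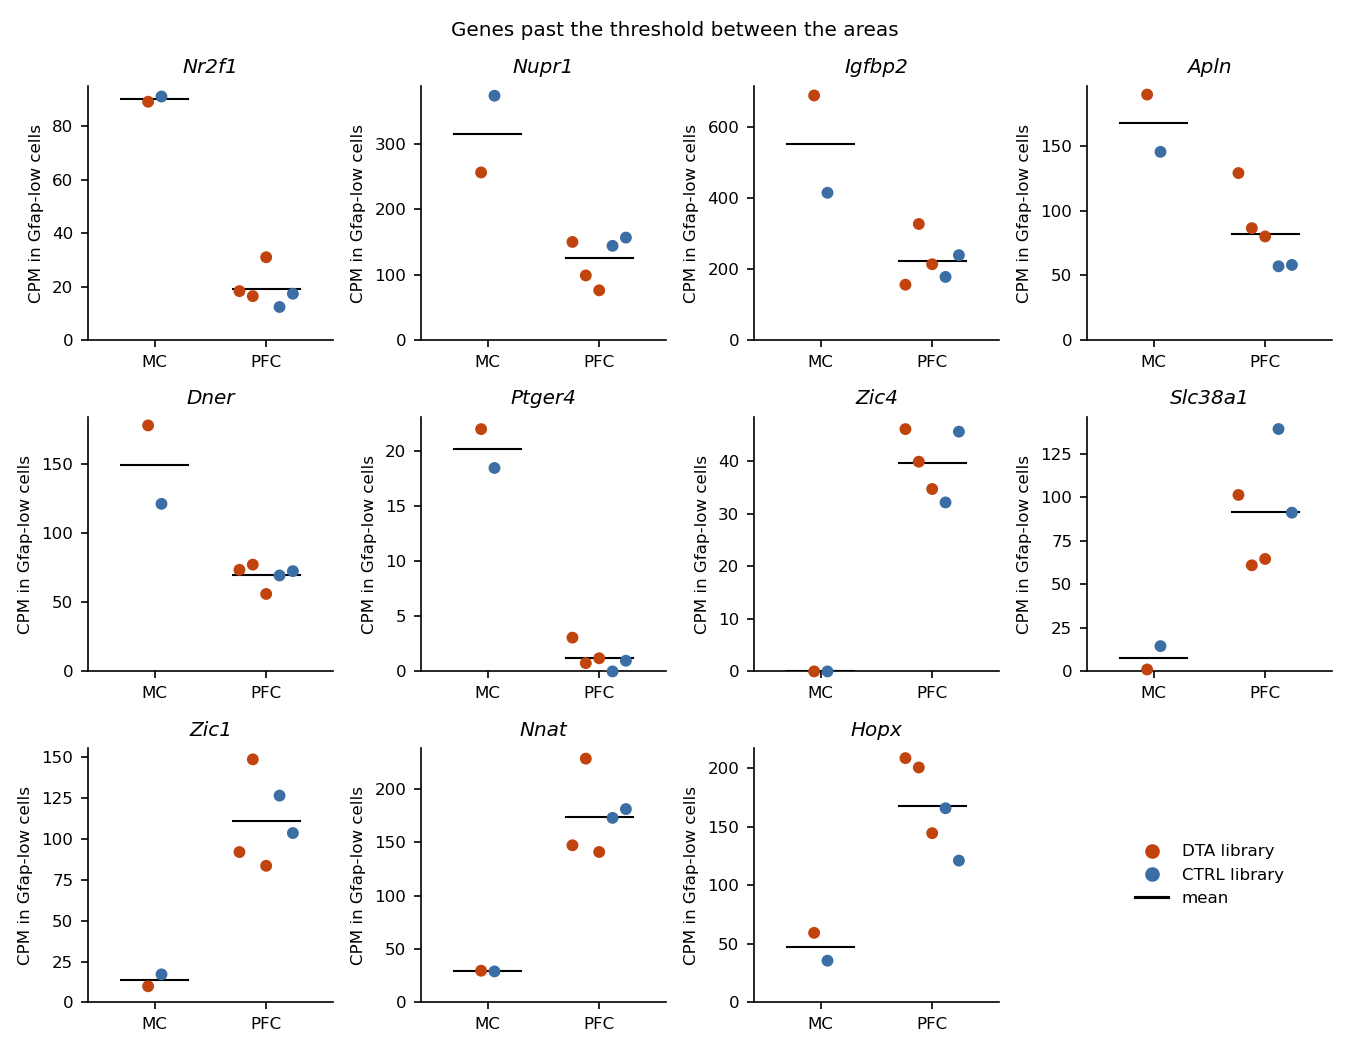
Level in CPM, on axes that start at 0, of the 11 genes that passed between MC and PFC in Gfap-low astrocytes. Each point is a library, coloured by genotype, and black bars are area means. MC libraries lie on 1 side of all 5 PFC libraries in every gene, as for Zic1 at 9.91 and 17.2 CPM in MC and 83.6 to 149 CPM in PFC.

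The other regional identity genes did not pass. The list of 21 tested positional genes had 4 called, Zic4, Zic1, Nnat and Nr2f1, with 15 negative and a median log2 fold change of -0.32, also with Zic4 at its bound. The median over all genes was -0.02. Zic5 had 37.4 and 37.0 CPM in MC and 39.4 to 61.4 CPM in PFC. Lhx2, a forebrain factor, overlapped between the areas, at 346 and 310 CPM in MC and 344 to 369 CPM in PFC. Emx2, a factor of the dorsal forebrain, had 116 and 96.4 CPM in MC and 104 to 151 CPM in PFC.

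Fibrous or pial astrocyte genes had 2 of 17 called, Nnat and Slc38a1, both of which fell in MC, with 14 negative and a median of -0.72. Over all genes tested the called share was 0.115%. Both calls are also counted in other lists, Nnat among the positional genes and Slc38a1 under transmitter uptake, so they are not a separate result. Without PFC DTA replicate 3 the median was -0.44, with 12 of 16 negative, and Fabp7 passed as well (-1.07). Their sum was 2457 and 2241 CPM in MC and 2942 to 4701 CPM in PFC. Gfap-high cells, which carried more Myoc and Fxyd6 and stand outside these sums, made up 0.958% and 0.214% of Gfap-low and Gfap-high cells together in MC DTA and MC CTRL, against 2.55% to 12.8% in PFC. The MC shares rest on 3 and 1 Gfap-high cells, with exact 95% binomial intervals of 0.198% to 2.78% and 0.00542% to 1.19%. The part of Gfap-high cells in the list's difference was not tested. Fabp7, a fatty acid binding protein of radial glia and astrocytes, had 484 and 426 CPM in MC, against 477 to 1061 CPM in PFC. Immediate early genes were negative in 26 of 27, none called, with a median of -0.82 and sums of 4034 and 4156 CPM in MC and 3769 to 8924 CPM in PFC. Without PFC DTA replicate 3 all 27 were negative, the median was -1.03, and Fos (-1.46), Junb (-1.43) and Btg2 (-1.58) passed. That library had the lowest Fos level of all, and the list counts without it were added after seeing the data. These calls are therefore a description only. In the remaining cells Fos stood at 304 and 226 CPM in MC and 327 to 589 CPM in PFC, and the part of such a difference across all cells was not tested. Potassium, water and junction genes were positive in 11 of 15, none called, with a median of 0.25. Atp1b2, a sodium pump subunit, had 1646 and 1429 CPM in MC and 770 to 1116 CPM in PFC (log2 0.73, SE 0.22, adjusted p 0.407). Genes of astrocyte identity (16 of 28 positive), sterol synthesis and lipid transport (12 of 27), glycolysis and glycogen (14 of 22) and the clock (10 of 19) had medians of -0.05 to 0.08 and no call. Secreted proteins (12 of 24 positive) had Igfbp2 called (no member without PFC DTA replicate 3), transmitter uptake (8 of 14) Slc38a1, and identity transcription factors (19 of 33) Hopx.

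**Figure D5:**
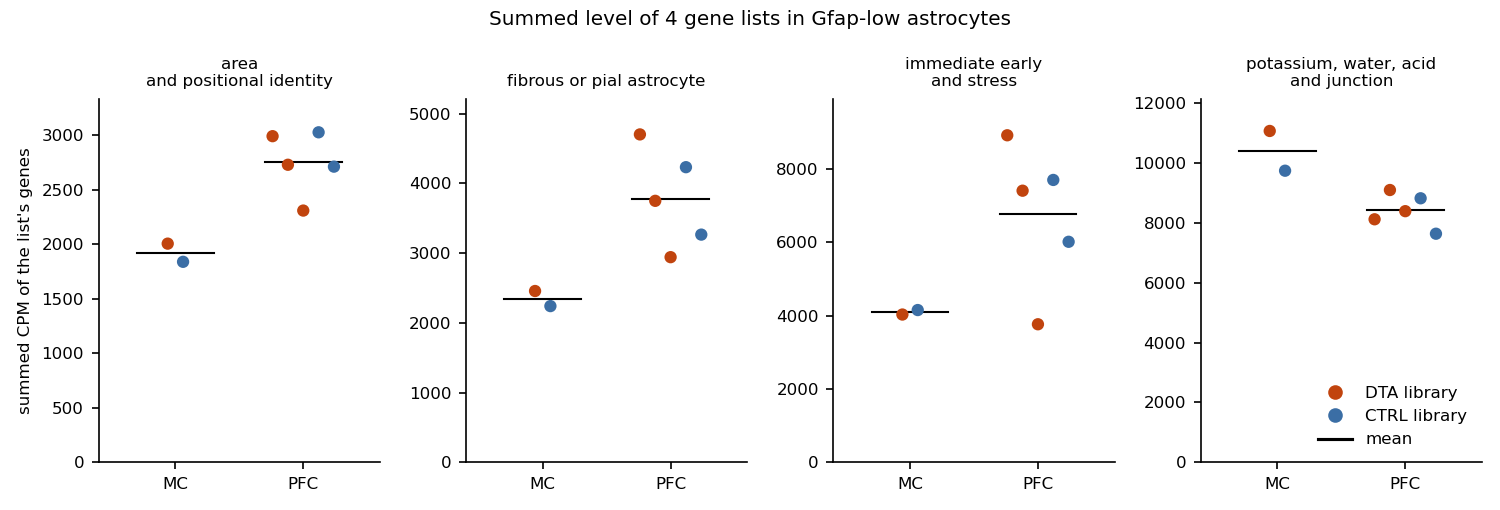
Summed level in CPM, on axes that start at 0, of 4 gene lists in the Gfap-low astrocytes. Each point is a library, coloured by genotype, and black bars are area means. Immediate early genes sum to 4034 and 4156 CPM in MC and to 3769 to 8924 CPM in PFC, with PFC DTA replicate 3 the lowest of all.

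Whether the area difference was unequal in the Gfap-low astrocytes and in the remaining cells was tested as an interaction of area and cell class. Of 13870 genes 15 passed, or 0.108%, with 10 positive and 5 negative. Among the 11 area genes, Zic4, Slc38a1 (log2 -3.77, adjusted p 0.0264), Nr2f1 (2.08, adjusted p 0.0264), Igfbp2 (1.21, adjusted p 0.0265) and Ptger4 (3.93, adjusted p 0.0383) passed. Zic1 (-2.06, adjusted p 0.0809) and Hopx (-1.25, adjusted p 0.437) did not. Apln, Dner and Nupr1 did not pass either, nor did Nnat, whose log2 value was 0.10. Genes that passed here and not between areas included Wnt7b, a Wnt ligand, at 94.7 and 97.7 CPM in MC and 61.4 to 82.0 CPM in PFC astrocytes, while the remaining cells had 18.3 and 14.7 CPM in MC and 28.1 to 41.4 CPM in PFC. Emx2 passed as well (-1.54), with 10.2 and 8.91 CPM in MC and 2.70 to 4.95 CPM in PFC in the remaining cells. The adhesion proteins Amigo2, Cadm1 and Pcdh17 passed at log2 2.43, 1.46 and 1.45. The remaining cells are a mixture whose makeup differs between libraries, with oligodendrocyte genes summing to 2677 to 14050 CPM, and its part was not tested.

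The genotype difference was not shown to differ between areas. Of 10203 genes 0 passed the interaction of genotype and area in edgeR's test, that is 0%, with 137 at an unadjusted p under 0.05, and DESeq2 called 0. Between the single MC libraries there is no test. Of 2396 genes with at least 50 counts in each, 40 differed past 2-fold, or 1.67%. Hes1, a target of Notch signalling, had 621 CPM in MC DTA and 238 CPM in MC CTRL, a ratio of 2.61 with a counting interval of 2.20 to 3.11. In the PFC it had 473, 727 and 177 CPM in DTA and 278 and 286 CPM in CTRL. Ntm, a neurotrimin adhesion protein, had a ratio of 2.39 (2.16 to 2.65), and Srebf1, a regulator of lipid synthesis, 2.08 (1.52 to 2.89). The lowest ratios were of genes abundant in neurons. Pcp4 had 144 CPM in MC DTA and 687 CPM in MC CTRL, a ratio of 0.210 (0.172 to 0.255), Nrgn had 0.271 (0.220 to 0.333) and Tmsb10 0.281 (0.202 to 0.387). The excitatory neuron list moved with them, at 782 CPM in MC DTA and 2373 CPM in MC CTRL, as did the neuronal vesicle gene Snap25 at 259 CPM and 846 CPM, and their part in these ratios was not tested.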

How the data were processed

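Droplet libraries of dissociated PFC and MC cells were made with the 10x Genomics 3' V2 kit, per the labels' protocols. The authors deposited tables of UMI counts per gene and cell, which were whole numbers. Cell Ranger 3.0.2, Seurat and mm10 are named in the submitters' processing notes, with no role given. The fewest genes per cell in a library were 501 to 503.

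Counts of the Gfap-low astrocytes were summed per library and given as CPM of that sum. The low-count filter was filterByExpr at 10 counts and the scaling TMM. The test was edgeR's robust quasi-likelihood test (edgeR 4.0.16 in R 4.3.3), with Benjamini-Hochberg adjustment over all genes tested at 0.05. The PFC fit had 3 residual degrees of freedom. The area fit over 7 libraries held genotype as a term. The area by class fit held the library as a block and let genotype act on the class difference. The SE is the absolute log2 fold change over the square root of F. DESeq2 1.42.0 was the second tool, and Python 3.11.15 with scipy 1.17.1 and scanpy 1.11.5 was used for shares, thinning and doublet scores. Doublet calls, 48 among the Gfap-low astrocytes, were left in and removed as an alternative. Calling was automatic except in PFC DTA replicate 3, where it gave 0. There the 295 top scores were taken, at an assumed rate of 0.8% per 1000 cells, and 23 of them were Gfap-low astrocytes. The tests were checked on simulated data. Labels name the libraries only as replicates, so p-values measure the spread between libraries, which were treated as independent, also between the areas.

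The members, the 28 gene lists and the tests were chosen with earlier results of these data known. Named genes are the 5 each way with the smallest p in the PFC where none passed, the genes past the threshold between areas, and the called members, or the member with the smallest p, of a list, at a mean of at least 20 CPM outside lists. Predicted genes and the 13 rule genes were not ranked. Some genes of the lists are not reported here. Single genes outside that rule were chosen after their values were seen, namely Fos, Junb, Mt1, S100a8, Lhx2, Emx2, Zic5, Wnt7b, Slc1a2, Glul, Btg2, Amigo2, Cadm1, Pcdh17 and Snap25. Alternatives were RLE size factors, no filter, DESeq2, a test that is not robust, doublets out, members picked after thinning, a stricter rule of 5 genes, a looser rule of 3 genes and a minimum of 1000 UMIs for shares, equal cell numbers, a depth term, CTRL libraries alone, each library left out and the replicate number as a block. The area by class fit and list counts without PFC DTA replicate 3 were added after seeing the data.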

Additional observations from a re-analysis of the deposited data

Results flagged for a closer look

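The share of Gfap-high cells among Gfap-low and Gfap-high cells together was 2.55%, 4.86% and 12.75% in PFC DTA replicates 1 to 3, 4.08% and 3.29% in PFC CTRL, 0.958% in MC DTA and 0.214% in MC CTRL. Over the 5 PFC libraries the 12.75% of DTA replicate 3 stood apart by Dixon's criterion. It was the 1 value so marked among 17 groups of values tested, and chance marks about 1 in 20. The MC shares rest on 3 and 1 Gfap-high cells. Gfap was cut on raw counts, and Gfap-high cells had higher median UMIs than Gfap-low astrocytes in every library. In PFC DTA replicate 3 the medians were 4410 and 2382 UMIs. The part of depth in these shares was not tested.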

How the results depend on the processing

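The share difference of PFC cells that were Gfap-low astrocytes turned to -0.105 points under the stricter rule and ran from -1.78 to 2.72 with each library left out, with values below 0 of -1.78 without CTRL replicate 2, -0.238 without DTA replicate 1 and -1.23 without the second DTA library. The 0 genes called between PFC DTA and CTRL became 9 with no filter on low counts, 1 under DESeq2, and 0 to 5 with each library left out. Without CTRL replicate 1, 2 genes passed (S100a8 and S100a9), and without CTRL replicate 2, 5 did. The replicate block gave 21 calls in the PFC, where only 2 numbers are shared and the deviations of same-numbered libraries correlated at 0.19 and -0.07, so the numbers were not taken to pair libraries. The 11 area genes became 58 with no filter, 7 with a depth term and 0 with the CTRL libraries alone, and 1 to 28 with each library left out. That range came from 28 without PFC CTRL replicate 1, 6 without PFC DTA replicate 2, 4 without MC CTRL and 1 without MC DTA. Of 17 alternatives, Zic4 passed in 16, Zic1 and Nnat in 15, Nr2f1 and Hopx in 14, Slc38a1 in 13, Nupr1 in 11, Igfbp2 in 10, Ptger4 in 9, Apln in 8 and Dner in 6. The genotype by area count of 0 became 1 with no filter and 0 to 3 with each PFC library left out (3 without CTRL replicate 2). It was not run without an MC library. The Malat1 ratio of 30.7 was 18.1 at 500 UMIs. The cause of these changes was not tested. For single named genes, 273 values kept their direction and side of the threshold, 8 passed newly and 56 no longer passed, and none changed direction.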

Other observations

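The glucocorticoid target list, whose sum is carried largely by the metallothioneins Mt1 and Mt2, summed to 20183 CPM in MC DTA, 17468 CPM in MC CTRL, 18686, 21560 and 15976 CPM in PFC DTA and 23113 and 9091 CPM in PFC CTRL. Its members with the smallest p in the PFC and between areas were Nfkbia and Per1, and none of its 13 members tested in the PFC and 14 between areas passed. The metal and redox list, which shares the metallothioneins, summed to 28003 to 37050 CPM in 6 libraries and to 20049 CPM in PFC CTRL replicate 2. Class I antigen presentation and interferon genes were sparse, with 6 of 20 above the filter in the PFC and sums of 343 to 488 CPM in DTA and 332 and 341 CPM in CTRL. Cell cycle genes had 4 of 18 above the filter and sums of 206 to 508 CPM in PFC DTA and 282 and 333 CPM in PFC CTRL.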
